A study of Mus musculus with 6 samples.

Results

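The glucocorticoid response genes described here are Sgk1, Fkbp5, Tsc22d3, Zbtb16, Nfkbia, Map3k6, Arrdc2, Errfi1, Plin4 and Sult1a1, 10 of the 78298 mouse gene identifiers in the table. They were selected on the measured values themselves, in that the list was drawn up with their normalised counts per library and their lower level in Top2b-low libraries already known. The difference between the genotypes is therefore given for them as a description and without a test. All 10 passed the filter of a mean normalised count of 10 or more, which left 17391 genes to test. Polyadenylated brain RNA was sequenced in 3 Top2b-low and 3 wild-type (WT) male mice, 1 library per mouse. Top2b-low mice were homozygous for a Top2b allele that carries an auxin-inducible degron tag at the start of the coding sequence, made with CRISPR/Cas9. WT mice were the comparison group, and the labels state that no drug was given. The strain is not given in the sources used here. All mice were anaesthetised with isoflurane before death. The hour at which tissue was taken is not given in the sources used here, and the age is given as 10 weeks in one place and 3.5 months in another. The tissue is likewise given as the left brain in one place and as whole brain in another. The library name of Top2b-low replicate 3 ends in dNdN where the names of the other Top2b-low libraries end in Homo, and the labels do not explain the difference.

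Glucocorticoids are adrenal steroid hormones whose blood level follows the time of day and rises with stress. Inside cells they bind the glucocorticoid receptor, which leaves its chaperone complex, enters the nucleus and binds DNA at paired hexamers called glucocorticoid response elements. In the brain, neurons, glia and vessel cells all respond, and the induced genes include inhibitors that dampen hormone action and inflammation. Fkbp5 and Tsc22d3 are among the genes most often used as readouts of glucocorticoid action in rodent brain.

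The 250 bases before the annotated starts of the members were read for the letters of the glucocorticoid response element, since the receptor binds such letters. The RefSeq promoter table (GRCm38.p6) held 17 such windows for 9 members, 6 of them for Sgk1. Zbtb16 had no window. On both strands, 3 patterns were searched. One was the single hexamer AGAACA, written as TGTTCT when it lies on the other strand. The others were the palindromic core ACANNNTGT, and the full palindrome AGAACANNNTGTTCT, which contains the core and 2 hexamers. The full palindrome was added after the other matches had been seen. The windows with a core, or for members without one a hexamer, follow, with the matching letters in capitals.

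Sgk1, chr10:21993640-21993889, plus strand: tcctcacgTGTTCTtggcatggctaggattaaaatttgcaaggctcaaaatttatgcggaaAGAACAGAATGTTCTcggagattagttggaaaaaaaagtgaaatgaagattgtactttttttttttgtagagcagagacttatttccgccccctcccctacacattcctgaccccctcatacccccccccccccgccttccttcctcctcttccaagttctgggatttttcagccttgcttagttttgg
Sgk1, chr10:21978422-21978671, plus strand: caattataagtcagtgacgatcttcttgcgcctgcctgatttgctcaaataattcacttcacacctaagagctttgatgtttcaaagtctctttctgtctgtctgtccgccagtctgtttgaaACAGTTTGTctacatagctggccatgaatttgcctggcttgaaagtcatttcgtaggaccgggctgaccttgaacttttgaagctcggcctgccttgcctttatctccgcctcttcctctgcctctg
Map3k6, chr4:133240568-133240817, plus strand: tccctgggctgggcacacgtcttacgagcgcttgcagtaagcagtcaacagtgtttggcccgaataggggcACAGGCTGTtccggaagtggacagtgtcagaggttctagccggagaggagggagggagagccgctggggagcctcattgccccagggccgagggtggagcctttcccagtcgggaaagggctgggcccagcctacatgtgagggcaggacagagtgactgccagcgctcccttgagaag
Tsc22d3, chrX:140600523-140600772, minus strand: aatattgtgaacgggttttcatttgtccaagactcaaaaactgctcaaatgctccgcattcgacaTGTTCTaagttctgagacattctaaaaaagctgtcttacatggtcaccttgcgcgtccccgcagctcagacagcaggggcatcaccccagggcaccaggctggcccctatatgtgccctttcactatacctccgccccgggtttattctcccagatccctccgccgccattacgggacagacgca
Sult1a1, chr7:126676419-126676668, minus strand: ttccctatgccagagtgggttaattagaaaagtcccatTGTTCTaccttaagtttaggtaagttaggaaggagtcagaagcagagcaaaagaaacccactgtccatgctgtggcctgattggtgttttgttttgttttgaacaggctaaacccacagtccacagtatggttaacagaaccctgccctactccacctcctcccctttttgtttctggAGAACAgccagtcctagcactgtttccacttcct

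The first Sgk1 window holds the full palindrome, starting at position -189 relative to the annotated start, and 1 further hexamer upstream of it. That start lies 776 bases before the most downstream of the 6 annotated Sgk1 starts. The full palindrome occurred in 3 of 32851 RefSeq windows (0.00913%), 1 of which was the Sgk1 window. The core occurred in 3 of the 17 member windows and in 5.84% of all windows, and by gene in 2 of 9 members (Sgk1 and Map3k6) and 6.76% of all genes. The hexamer occurred in 5 member windows and 16.1% of all windows, and by gene in 3 of 9 members (Sgk1, Tsc22d3 and Sult1a1) and 18.2% of all genes. No match fell in the windows of Fkbp5, Nfkbia, Arrdc2, Errfi1 or Plin4. These letters are a description of the windows and say nothing about binding.

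The 6 libraries held between 16963067 and 35246703 reads, as recovered from the normalised counts. Top2b itself averaged 2144 ± 175 normalised counts in Top2b-low and 2886 ± 355 in WT libraries (SD, n = 3 each), without overlap. Its log2 difference of -0.42 (SE 0.11) had an adjusted p of 0.999974 with limma. Replicate 3 of each genotype has a library name that begins with N22. This pair was also the deepest, with 35246703 reads in Top2b-low and 28629911 in WT. The other 4 libraries held 16963067 to 17413959 reads, and the part of depth in the N22 differences was not tested. In that pair all 10 markers on a cerebellar list were lower than in the other 4 libraries by limma's test (adjusted p under the threshold of 0.05), with a median log2 difference of -4.02. Of all tested genes 16.7% were lower by that test. Values of the members are therefore given by library, and the N22-named libraries are pointed out. In bulk tissue, fewer cells of a type and less RNA per cell cannot be told apart.

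The members that restrain hormone action or inflammation had their lowest levels in Top2b-low libraries and their highest in WT replicate 2. Fkbp5 encodes a co-chaperone that lowers the receptor's affinity for hormone. It had 705, 589 and 900 normalised counts in Top2b-low replicates 1 to 3, against 646, 1046 and 936 in WT replicates 1 to 3. The groups overlapped, because WT replicate 1 was low and the N22-named Top2b-low replicate 3 was high. Tsc22d3 encodes the leucine zipper protein GILZ, which mediates anti-inflammatory effects of glucocorticoids. Its counts were 1909, 1436 and 1402 in Top2b-low and 1935, 2223 and 1621 in WT libraries. Top2b-low replicate 1 lay within the WT range and the other two Top2b-low libraries below it. Nfkbia encodes the inhibitor that holds NF-κB in the cytoplasm. It counted 381, 246 and 306 in Top2b-low and 386, 436 and 391 in WT libraries. These groups did not overlap, with Top2b-low replicate 1 and WT replicate 1 close to each other. The means of the 3 genes were 16.5% (Fkbp5), 17.9% (Tsc22d3) and 23.1% (Nfkbia) lower in Top2b-low than in WT libraries. Single libraries moved these differences. The log2 difference of Fkbp5, -0.25, was -0.11 without Top2b-low replicate 2 or without WT replicate 2, and -0.41 without Top2b-low replicate 3 and -0.46 without WT replicate 1. That of Tsc22d3, -0.29, was -0.18 without WT replicate 2, and that of Nfkbia, -0.40, was -0.24 without Top2b-low replicate 2. The annotated span of Fkbp5 overlaps 4 other genes, 2 of them on the same strand, and whether counting used strand is not given in the sources used here.

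Among the signalling genes, Sgk1 and Map3k6 had no Top2b-low value as high as any WT value. Sgk1 encodes a serine/threonine kinase that regulates ion channels and transporters. Its normalised counts were 2361, 1788 and 1392 in Top2b-low and 2620, 3861 and 2490 in WT libraries, with means of 1847 ± 487 and 2990 ± 757 (SD, n = 3 each). WT replicate 2 stood well above the rest, and the remaining WT libraries were close to Top2b-low replicate 1. Map3k6 encodes a kinase at the head of stress-activated MAP kinase cascades. It had 59.1, 49.8 and 72.2 normalised counts in Top2b-low and 74.1, 119 and 93.9 in WT libraries. These rested on 41 to 132 reads, and the exact 95% Poisson intervals of Top2b-low replicate 3 (59.9 to 86.2) and WT replicate 1 (56.7 to 95.2) overlapped. Such intervals cover counting error only. The mean of Sgk1 was 38.2% lower and that of Map3k6 36.9% lower in Top2b-low than in WT libraries.

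Errfi1 and Arrdc2 overlapped between the genotypes. Errfi1 encodes a feedback inhibitor of the EGF receptor family. It counted 859, 836 and 627 in Top2b-low and 892, 1134 and 680 in WT libraries, and the lowest value of each genotype was the N22-named one. Its mean was 14.2% lower in Top2b-low libraries, the smallest difference of the 10 genes, and its log2 difference of -0.20 became -0.02 without WT replicate 2, -0.06 without Top2b-low replicate 3 and -0.39 without WT replicate 3. Errfi1 overlaps 1 gene on the opposite strand, 1700045H11Rik. Arrdc2 encodes an α-arrestin, a family of adaptors for membrane protein trafficking. Its counts were 260, 203 and 208 in Top2b-low and 234, 389 and 361 in WT libraries, with WT replicate 1 inside the Top2b-low range. The mean of Arrdc2 was 31.9% lower in Top2b-low than in WT libraries.

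Zbtb16, which encodes the zinc finger transcription factor PLZF, differed between the genotypes in opposite ways inside and outside the N22-named pair. Its normalised counts were 641 and 578 in Top2b-low and 950 and 1168 in WT replicates 1 and 2. In the N22-named libraries they were 719 in Top2b-low and 595 in WT. The log2 difference, Top2b-low minus WT, was -0.79 outside N22 and 0.27 in the N22-named pair, which has no replicate. Over all 6 libraries it was -0.44, against -0.22 without WT replicate 2 and -0.71 without WT replicate 3. The other 9 members were lower in Top2b-low on both sides of that split.

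The metabolic genes Plin4 and Sult1a1 were low in the same 3 libraries, Top2b-low replicates 1 and 2 and WT replicate 1. Plin4 encodes a perilipin, a protein that coats lipid droplets. It had 44.3, 68.0 and 221 normalised counts in Top2b-low and 98.4, 367 and 307 in WT libraries. The highest value was 8.29 times the lowest, the widest range of the 10 genes, and the lowest rested on 36 reads. Top2b-low replicate 3 lay inside the WT range. The mean was 56.9% lower in Top2b-low than in WT libraries, with SDs of 95.7 and 141 around means of 111 and 257. Its log2 difference of -1.34 was -0.86 without Top2b-low replicate 1. Sult1a1 encodes a phenol sulfotransferase. It counted 93.5, 89.8 and 146 in Top2b-low and 108, 145 and 156 in WT libraries, and it was the only member whose highest library was WT replicate 3. Its mean was 19.5% lower in Top2b-low than in WT libraries, and its log2 difference of -0.33 was -0.20 without Top2b-low replicate 2 and -0.55 without Top2b-low replicate 3. The annotated spans of both genes overlap a gene on the opposite strand, Hdgfl2 for Plin4 and Sgf29 for Sult1a1, so the unknown strand setting bears on them too. Hdgfl2 counted 1117 to 1424 in Top2b-low and 1289 to 1555 in WT libraries, and Sgf29 127 to 168 in Top2b-low and 147 to 182 in WT libraries. The highest value was 1.39 times the lowest for Hdgfl2 and 1.44 times for Sgf29, against 8.29 for Plin4 and 1.73 for Sult1a1. In counts, however, the range of Hdgfl2 was not narrower than that of Plin4. The part of these overlaps in the values was not tested.

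**Figure D1:**
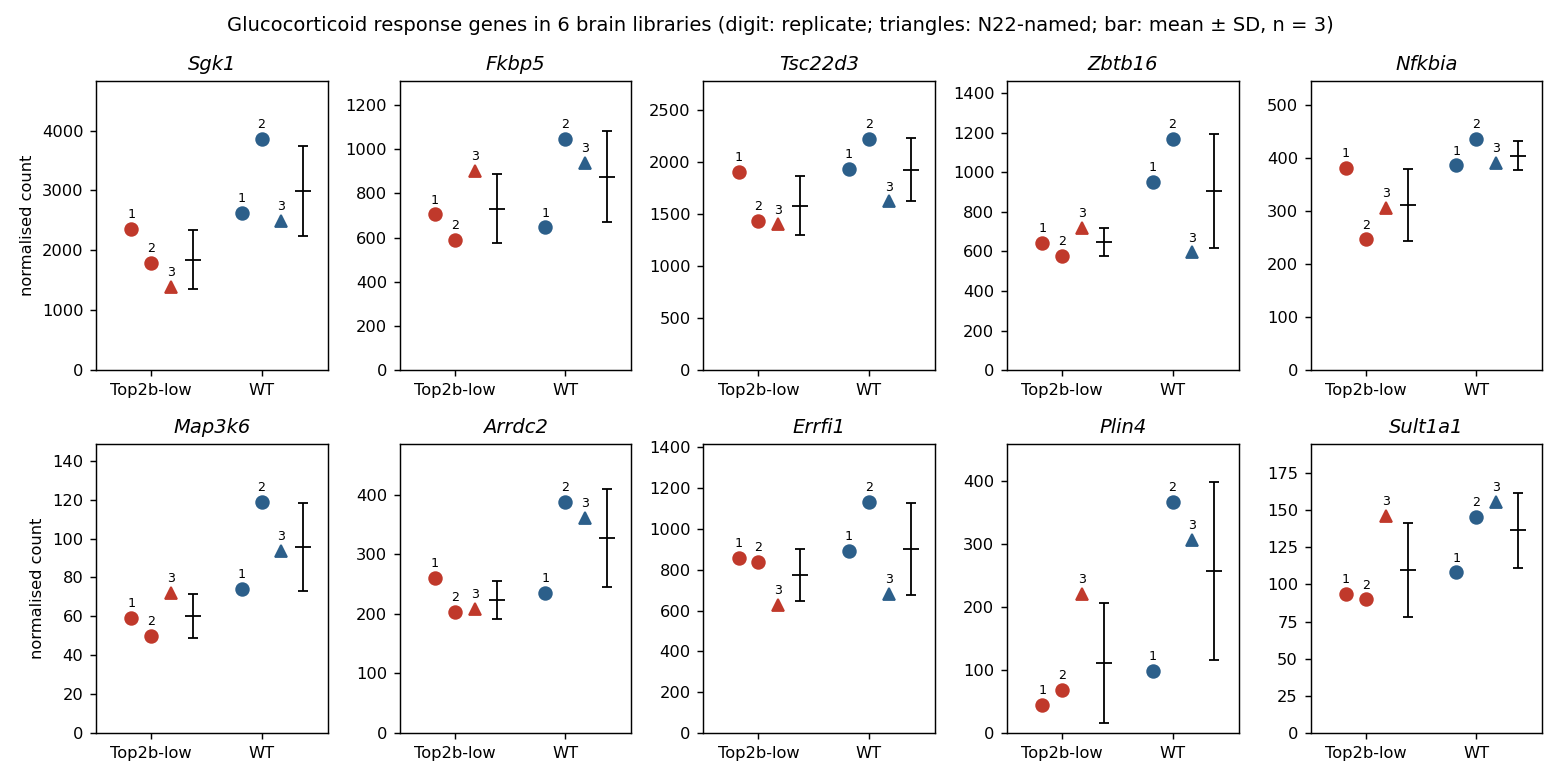
Normalised counts (linear axis from 0) of the 10 glucocorticoid response genes in each library, Top2b-low at the left and WT at the right of each panel. Digits give the replicate, triangles the N22-named libraries and bars the mean ± SD (n = 3). WT replicate 2 is the highest point for 9 genes, and for Sult1a1 the highest is WT replicate 3 at 156.

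As a list, all 10 members had a lower mean log2 level in Top2b-low than in WT libraries, where 50.6% of all 17391 tested genes did. Their median log2 difference was -0.42, against a median of -0.0021 over all tested genes. The 3 members without overlap, Sgk1, Nfkbia and Map3k6, stand beside 3.04% of all tested genes that were lower without overlap and 5.74% without overlap in either direction, 2.70% being higher. Since the list was drawn up with this contrast known, nothing is read from these counts. Over all tested genes limma called 0 between the genotypes (0% of those tested), with 262 at an unadjusted p under 0.05, and edgeR and DESeq2 called 0 as well. Averaged over the members, each library's deviation from the gene means was -0.24, -0.43 and -0.10 in Top2b-low replicates 1 to 3 and -0.02, 0.58 and 0.21 in WT replicates 1 to 3. The 3 Top2b-low values were all below the 3 WT values, with WT replicate 1 and Top2b-low replicate 3 the nearest to each other. The mean log2 difference of the list, -0.51, was -0.35 without WT replicate 2 and -0.65 without WT replicate 1.

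**Figure D2:**
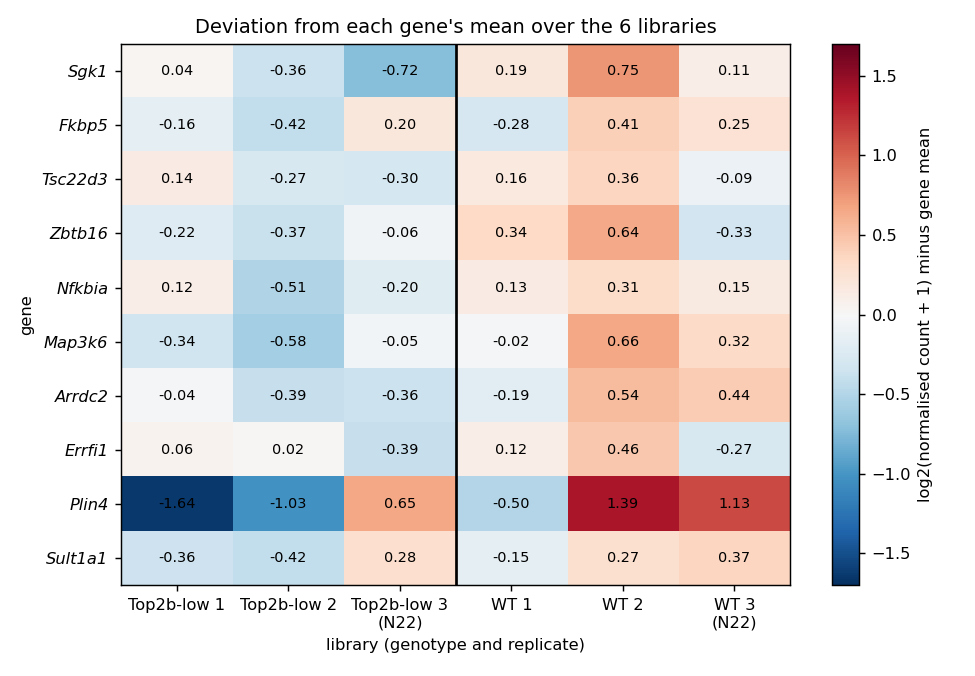
Deviation of log2(normalised count + 1) from each gene's mean over the 6 libraries, with genes in rows and libraries in columns, Top2b-low left of the black line and WT right of it. The column of WT replicate 2 is positive for all 10 genes, between 0.27 for Sult1a1 and 1.39 for Plin4, and that of Top2b-low replicate 2 is negative for all but Errfi1 (0.02).

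The spread of the members between libraries is also a description, since their values per library were known when the list was drawn up. The median range of a member over the 6 libraries was 0.89 on the log2 scale, against 0.48 for all tested genes. Within genotypes the median SD of a member was 0.29 in Top2b-low and 0.35 in WT libraries, against 0.18 and 0.17 for all tested genes. Of the 10 members, 9 were highest in WT replicate 2, where 17.8% of all tested genes were. The lowest library was Top2b-low replicate 2 for 6 members (Fkbp5, Zbtb16, Nfkbia, Map3k6, Arrdc2 and Sult1a1), Top2b-low replicate 3 for 3 (Sgk1, Tsc22d3 and Errfi1) and Top2b-low replicate 1 for Plin4. For all tested genes those shares were 18.1%, 21.9% and 10.9%.

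Between replicates 1 and 2 of each genotype the members mostly differed in the same direction. All 10 were higher in WT replicate 2 than in WT replicate 1, where 50.4% of all tested genes were, by ratios between 1.13 for Nfkbia and 3.73 for Plin4. In Top2b-low libraries, 9 of 10 were lower in replicate 2 than in replicate 1, where 50.5% of all tested genes were. The ratios of those 9 ran from 0.646 for Nfkbia to 0.974 for Errfi1. Plin4 was the exception, with 68.0 against 44.3 normalised counts. The N22-named replicate 3 went both ways against replicate 1 in each genotype. Sgk1 was lower there, with 1392 against 2361 in Top2b-low and 2490 against 2620 in WT libraries. Fkbp5 was higher, with 900 against 705 in Top2b-low and 936 against 646 in WT libraries. Each of these comparisons sets 1 library against another and has no replicate. The values of the single libraries were already known when the list was drawn up.

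Pairwise correlations of the members over the 6 libraries showed 2 sets of genes. They are given as a description, since all pairs share the same 6 libraries. The members' values per library were also known when the list was drawn up. With the genotype means removed, the median Pearson correlation of the 45 pairs was 0.37, and 36 pairs were above 0. Over pairs of 3479 tested genes, every 5th of the table, the median was -0.0025. Sgk1, Tsc22d3 and Errfi1 were close to each other (0.82 to 0.90). Fkbp5, Map3k6, Plin4 and Sult1a1 were likewise close to each other (0.81 to 0.97). Between those sets the correlations lay from -0.55 (Errfi1 and Sult1a1) to 0.20 (Sgk1 and Map3k6). The sets were picked out after the values had been seen. Without WT replicate 2 the median over all 45 pairs was 0.08.

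With the N22 means removed as well, most of the distance between the sets was gone. The median correlation of the 45 pairs was then 0.71 and 44 pairs were above 0, against a median of -0.00049 over pairs of the same 3479 genes. Fkbp5 and Map3k6 reached 0.99, Sgk1 and Fkbp5 0.82 where they had been at 0.04, and Errfi1 and Sult1a1 0.95 where they had been at -0.55. Only Zbtb16 and Arrdc2 remained below 0, at -0.02. Set against the mean profile of the other 9, Fkbp5 had a correlation of 0.99, Map3k6 0.98, Errfi1 0.92 and Sult1a1 0.90, and Zbtb16 (0.56) and Nfkbia (0.59) had the lowest. Removing both means leaves 3 degrees of freedom among the 6 libraries. The median of 0.71 was not recomputed without single libraries. It too describes genes chosen with their values per library known.

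**Figure D3:**
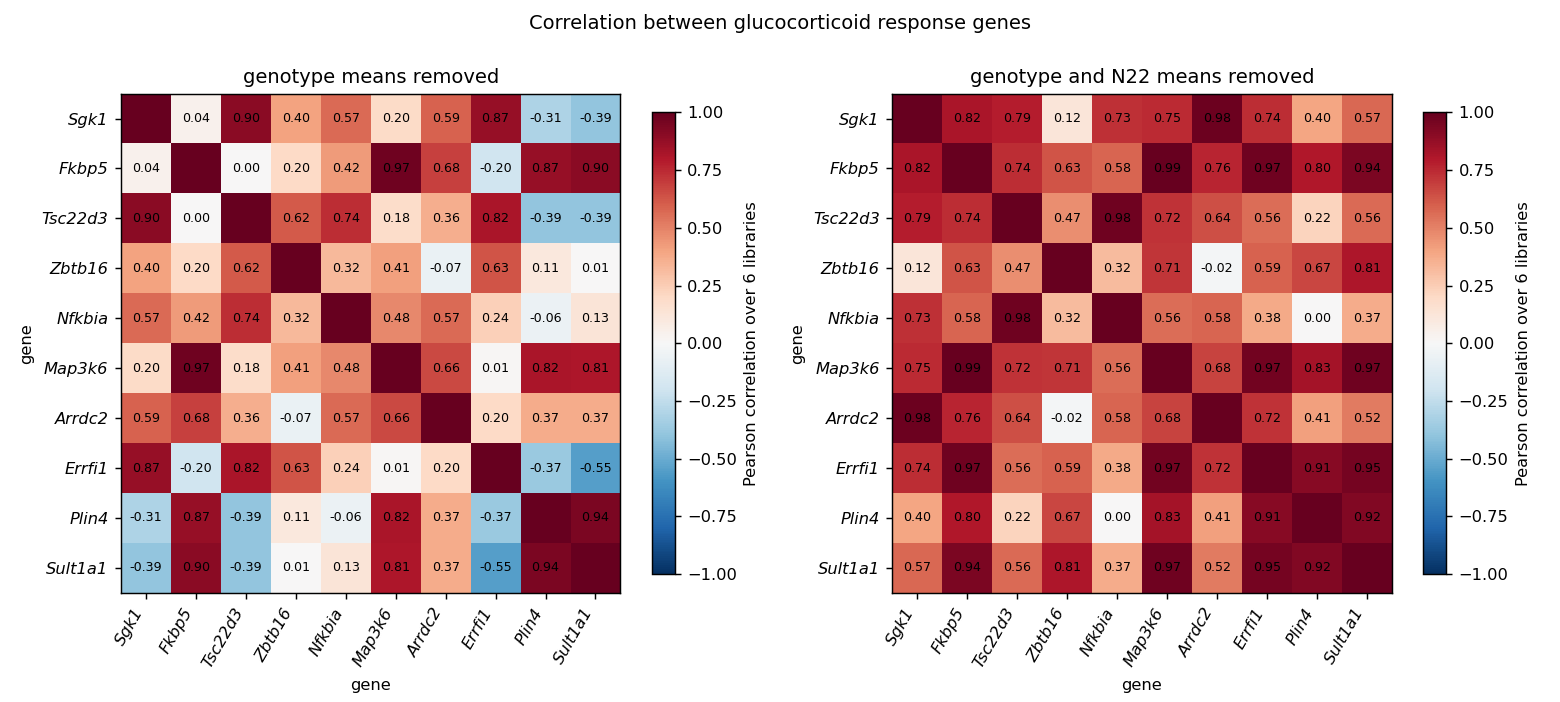
Pearson correlation over the 6 libraries between each pair of the 10 genes, with the genotype means removed (left) and with genotype and N22 means removed (right). On the left Sgk1, Tsc22d3 and Errfi1 correlate at 0.82 to 0.90 with each other and between -0.55 and 0.20 with Fkbp5, Map3k6, Plin4 and Sult1a1. On the right 44 of 45 pairs are above 0.

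Between the N22-named and the other libraries 2 members were lower and 2 higher. The values of all 6 libraries were known when the list was drawn up, so this contrast is not wholly independent of the choice of members. Errfi1 had 627 and 680 normalised counts in the N22-named libraries, against 836 to 1134 in the other 4, and fell by 0.50 on the log2 scale (SE 0.10, limma adjusted p = 0.00444). Sgk1 averaged 1941 in the N22-named libraries and 2658 in the others and fell by 0.46 (SE 0.15, adjusted p = 0.0416 with limma). Its ranges overlapped between the N22-named and other libraries. Plin4 averaged 264 in the N22-named libraries and 144 in the others and rose by 1.34 (SE 0.45, adjusted p = 0.0492 with limma). Sult1a1, at 151 and 109, rose by 0.49 (SE 0.16, adjusted p = 0.0463 with limma). The N22-named values of Sult1a1 did not overlap the other 4, though Top2b-low replicate 3 at 146 was next to WT replicate 2 at 145, while Plin4's WT replicate 2 at 367 exceeded both N22-named values. The 4 members called of 10 stand beside 28.0% of all tested genes called in this contrast, 11.3% higher and 16.7% lower, so the share of members called was not far from that of other genes.

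The remaining members did not pass this test. Tsc22d3 had a log2 difference of -0.30 (95% interval -0.53 to -0.06, adjusted p = 0.0608 with limma) and Fkbp5 of 0.33 (-0.03 to 0.70, adjusted p = 0.156 with limma). However, Tsc22d3 was called with DESeq2 (adjusted p = 0.0341), and with limma when Top2b-low replicate 2 was left out (adjusted p = 0.0060). Zbtb16 stood at -0.29 and depended on single libraries, being -0.82 and called without Top2b-low replicate 3 (adjusted p = 0.00857 with limma) and 0.24 and not called without WT replicate 3 (adjusted p = 0.304 with limma). Map3k6 stood at 0.20, Arrdc2 at 0.06 and Nfkbia at -0.04. The interval of Nfkbia ran from -0.37 to 0.30 and so did not show equal levels. Over the list the median was 0.01. Only the call for Errfi1 was held by each of limma, edgeR and DESeq2. Without Top2b-low replicate 3 the difference of Plin4 was 0.68 and that of Sult1a1 0.31, neither being called. The number of members called was 1 without Top2b-low replicate 1, 2 without Top2b-low replicate 3 and 2 without WT replicate 1. Without Top2b-low replicate 2 it was 3, with Tsc22d3 called and Plin4 and Sult1a1 not. Without WT replicate 2 it was 4, with Fkbp5 called and Sgk1 not. Without WT replicate 3 it was 0 with limma, 4 members having an unadjusted p under 0.05, and Errfi1 then had an adjusted p of 0.0806. Leaving out either replicate 3 leaves 1 N22-named library, which is assumed to vary like the others.

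**Figure D4:**
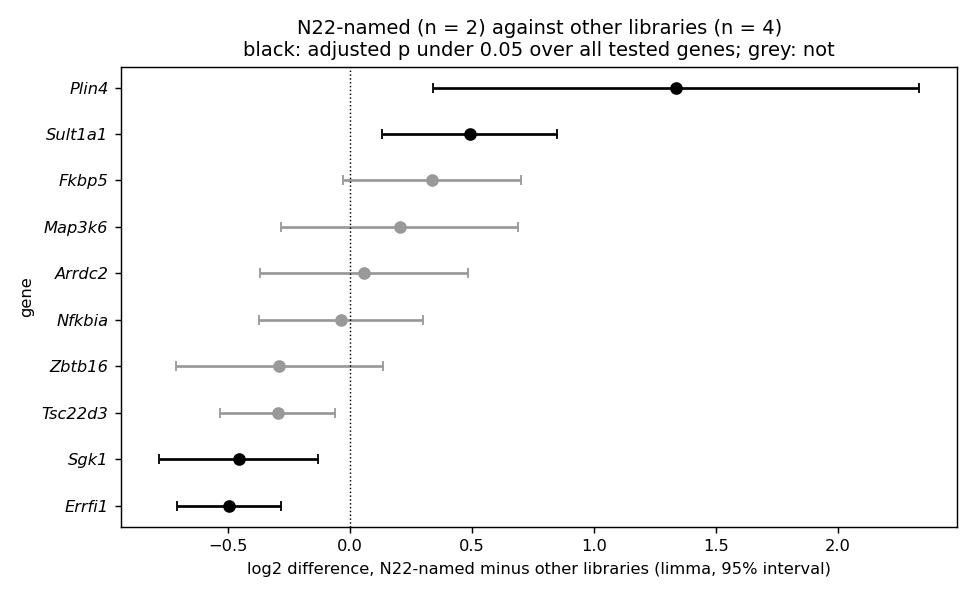
Log2 difference of each gene between the N22-named (n = 2) and the other libraries (n = 4) with its 95% interval from limma, genotype being in the model. Black points passed the adjusted threshold of 0.05 and grey points did not. Errfi1 (-0.50) and Sgk1 (-0.46) lie left of 0, Sult1a1 (0.49) and Plin4 (1.34) right of it, and the other 6 intervals belong to genes that did not pass.

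The receptors and the enzymes that set local hormone level had small differences between the genotypes. Nr3c1, the glucocorticoid receptor gene, counted 2717, 2963 and 2492 in Top2b-low and 2794, 2658 and 2466 in WT libraries, a log2 difference of 0.04 (SE 0.09). Nr3c2, the mineralocorticoid receptor gene, had a log2 difference of 0.04 (SE 0.08), and the efflux pump gene Abcb1a, whose product exports corticosteroids at the blood-brain barrier, 0.04 (SE 0.09). Hsd11b1, which encodes the enzyme that regenerates active glucocorticoid, counted 348, 364 and 293 in Top2b-low and 421, 306 and 312 in WT libraries. Of 9 listed genes of this kind 8 were tested, Hsd11b2 being too low, and 0 passed limma's test between the genotypes. Of the 8, 7 had a positive log2 difference, with a median of 0.04. Abcb1b, on the same list, had the smallest unadjusted p and a log2 difference of 0.14 (SE 0.25). In the N22-named libraries Crhr1, a receptor for corticotropin-releasing hormone, was lower (log2 difference -0.59, adjusted p = 0.00191 with limma). Crhbp, which encodes the binding protein of that hormone, was higher (0.59, adjusted p = 0.00795 with limma).

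Chaperones and coregulators of the receptor differed between the N22-named and the other libraries. Of 15 tested, 13 had a negative log2 difference between the genotypes, with a median of -0.05, and 0 passed limma's test. Fkbp4, a co-chaperone that aids transport of the receptor into the nucleus, had the smallest unadjusted p and counted 2843, 2678 and 2306 in Top2b-low and 3027, 3409 and 2531 in WT libraries (log2 difference -0.19, SE 0.13). In the N22-named libraries 10 of the 15 were lower by limma's test, among them the Hsp90 co-chaperone gene Ptges3 (-0.39) and Hsp90aa1 (-0.27), and 0 were higher. All tested genes gave 16.7% lower in that contrast.

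None of 24 other genes known to be induced by glucocorticoids passed the test between the genotypes. Of the 24, 21 had a negative log2 difference between Top2b-low and WT, where 50.6% of all tested genes did, with a median of -0.14. The 3 pathway lists were chosen with earlier results of these data known, so nothing is read from such counts of signs. By limma 0 passed the test, and 1, Klf15, had an unadjusted p under 0.05. Klf15 encodes a transcription factor of glucocorticoid-driven metabolism. It counted 485, 430 and 461 in Top2b-low and 515, 605 and 517 in WT libraries, without overlap (log2 difference -0.25, SE 0.11, adjusted p = 0.999974 with limma). Lyve1 did not overlap either, at 24.61, 25.49 and 20.71 in Top2b-low and 25.51, 35.09 and 26.31 in WT libraries, on 20 to 37 reads. So 2 of the 24 were lower without overlap, beside 3.04% of all tested genes. Hif3a, a hypoxia-inducible factor, counted 111, 114 and 193 in Top2b-low and 140, 251 and 192 in WT libraries, with its N22-named values equal within 1 count. Cdkn1a, the cell cycle inhibitor p21, counted 393, 337 and 293 in Top2b-low and 419, 612 and 316 in WT libraries. Dusp1, a phosphatase that shuts off MAP kinases, had a positive log2 difference of 0.41 (SE 0.25). This gene is also an immediate-early gene. Over the 47 tested genes of the 3 pathway lists, limma, edgeR and DESeq2 each called 0 between the genotypes, with 1, 1 and 0 at an unadjusted p under 0.05.

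In the N22-named libraries 9 of the 24 induced genes were lower and 1 higher by limma's test, beside 16.7% lower and 11.3% higher of all tested genes. Bcl6, a transcriptional repressor, was lower by 0.85 on the log2 scale and Tgm2, a transglutaminase, by 0.58. Lcn2, which encodes the acute-phase protein lipocalin 2, had 48.0, 18.2 and 2.96 normalised counts in Top2b-low and 20.6, 188 and 2.84 in WT libraries. Its highest value lay in WT replicate 2, and its N22-named values rested on 5 reads in Top2b-low and 4 in WT. The mean deviation of the 24 genes was 0.17, -0.14 and -0.27 in Top2b-low replicates 1 to 3. In WT replicates 1 to 3 it was 0.02, 0.42 and -0.20, so the genotypes overlapped.

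Other gene lists moved with the members in some libraries, and their part in the result was not tested. Heat shock genes and chaperones averaged 0.39 above their gene means in WT replicate 2, and all 14 had a negative log2 difference between Top2b-low and WT (median -0.14, 0 called by limma). Immediate-early genes went the other way, 17 of 18 being on the positive side (median 0.35, 0 called by limma), with the lowest library mean, -0.81, in WT replicate 3. These lists too were chosen with earlier results of these data known, so nothing is read from their counts of signs. Clock genes had library means between -0.06 and 0.08 in Top2b-low and between -0.06 and 0.04 in WT libraries, but the listed genes do not peak together. In the N22-named libraries 3 of the 15 were higher and 6 lower by limma's test, beside 11.3% higher and 16.7% lower of all tested genes. Per1, a clock gene and glucocorticoid target, counted 2365, 2719 and 1516 in Top2b-low and 2059, 2700 and 1937 in WT libraries, so the level in WT replicate 2 was matched by Top2b-low replicate 2.

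Markers of several cell types and of the cerebellum were set beside the members, and their part in the members' values was not tested. The 10 cerebellar markers summed to 35718, 36822 and 5513 normalised counts in Top2b-low and 39878, 31458 and 5805 in WT libraries, low in both N22-named ones. For the 10 endothelial markers the summed level was 6985 to 7868 normalised counts in Top2b-low and 6948 to 8843 in WT libraries, highest in WT replicate 2. The 10 oligodendrocyte markers summed to 119884 to 133039 in Top2b-low and 126544 to 142575 in WT libraries. For the 10 astrocyte markers the sums were 82411 to 97744 in Top2b-low and 76110 to 99330 in WT libraries. Of those 10, 6 were lower in the N22-named libraries by limma's test and 0 higher, beside 16.7% lower and 11.3% higher of all tested genes. Among the 6 were the water channel gene Aqp4 (log2 difference -0.95) and the transcription factor gene Sox9 (-0.68). The same test called 5 endothelial markers lower and 2 higher in the N22-named libraries. It called 4 meningeal, 3 oligodendrocyte, 3 mural cell and 1 choroid plexus marker lower and 0 higher. For microglia 2 were higher and 0 lower. Between the genotypes 0 of the 10 astrocyte markers were called by limma. Of the 10, 6 had a negative and 4 a positive log2 difference (median -0.06). Agt and Gjb6, 2 of the 10, were lower in Top2b-low without overlap, as 3.04% of all tested genes were. Agt, which encodes angiotensinogen, counted 816, 862 and 421 in Top2b-low and 1194, 1221 and 969 in WT libraries. Gjb6, which encodes the gap junction protein connexin 30, counted 1190, 1169 and 1176 in Top2b-low and 1417, 1647 and 1269 in WT libraries. Both had their highest value in WT replicate 2, as did 9 of the 10 members and 17.8% of all tested genes. Sums of the 10 mural cell markers ran from 4815 to 5781 in Top2b-low and from 4941 to 5853 in WT libraries, and those of the 10 microglia markers from 6939 to 7659 in Top2b-low and from 6951 to 7458 in WT libraries. The 10 meningeal markers summed to 5035 to 6543 in Top2b-low and 5304 to 6379 in WT libraries, and the 10 choroid plexus markers to 21544 to 25005 in Top2b-low and 23440 to 27898 in WT libraries. No listed marker was at 0 in any library. The members' own sum was 5884 to 7313 in Top2b-low and 7630 to 10890 in WT libraries.

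**Figure D5:**
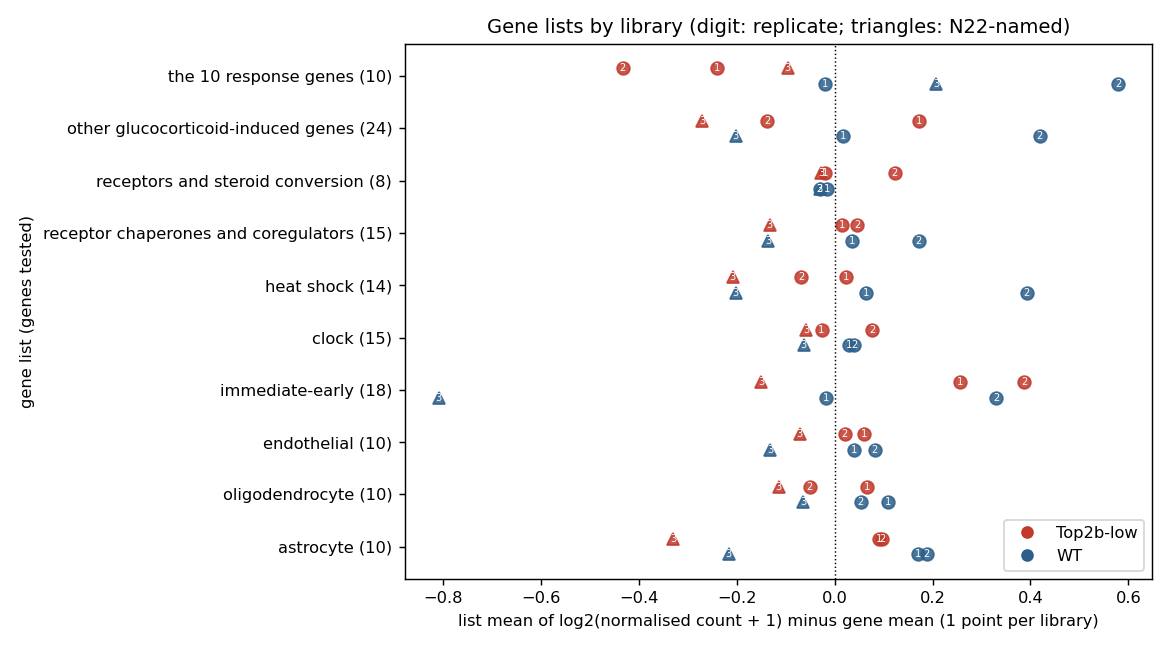
Mean over each gene list of log2(normalised count + 1) minus the gene's mean, 1 point per library, Top2b-low above WT within each list, with the replicate as a digit and triangles for the N22-named libraries. The 10 response genes spread from -0.43 (Top2b-low replicate 2) to 0.58 (WT replicate 2). Heat shock, other glucocorticoid-induced, receptor chaperone and coregulator, astrocyte and endothelial genes also have their highest point in WT replicate 2. The receptor, clock and immediate-early lists are highest in Top2b-low replicate 2, and oligodendrocyte genes in WT replicate 1.

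The genes outside the list whose profile was most like the members' mean profile, with genotype means removed, were Itgam, Hnrnph3, Grm5, Wwc1, Klf15, Atg5, Zc3h15 and Pdia6, with correlations of 0.96 to 0.98 over the 6 libraries. Of these only Klf15 was on a pathway list. Their ranges were narrow. Itgam, an integrin subunit of myeloid cells, counted 500, 469 and 498 in Top2b-low and 468, 528 and 470 in WT libraries. The highest library of Klf15 was 1.41 times its lowest, and for the other 7 genes this ratio lay between 1.09 and 1.26, where the members' ratios were 1.59 to 8.29. A correlation of 0.9 or more was reached by 115 tested genes (0.661%) and by 0 of the 10 members.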

How the data were processed

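What the authors deposited is a normalised count (a signal) for each gene in 6 libraries. Per the submitters' processing notes RSEM and mm39 were used. The aligner, versions, annotation and strand setting were not given in the sources used here. Dividing by each library's smallest positive value turned 100% of values into whole reads (tolerance 1e-06). Sample titles gave the groups and replicates. A gene name table paired identifiers with symbols, and overlaps were read from GENCODE vM21.

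Values were taken as log2(normalised count + 1) for genes with a mean of at least 10, and tested with limma 3.58.1 (intensity trend, two-sided, Benjamini-Hochberg adjustment over 17391 genes, threshold 0.05) in R 4.3.3. The genotype model had no covariate, and the N22 contrast had genotype as a term. As alternatives, the whole reads were tested with edgeR 4.0.16 (quasi-likelihood) and DESeq2 1.42.0. Fits with both genotype and N22 as terms were tested on simulated data. The genotype model without covariate was not tested in that way. The p-values measure the spread between these libraries, taken as separate mice from the series text. Within genotypes no libraries agreed within sampling noise (chi-square per degree of freedom 4.27 to 39.4).

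Libraries with the same replicate number correlated in their deviations from the genotype means at 0.33, 0.35 and 0.68, above 0.1 for each. The replicate block took these numbers to pair the libraries. Replicates 1 and 2 also correlated when crossed, at 0.24 for Top2b-low 1 with WT 2 and 0.37 for Top2b-low 2 with WT 1. The values therefore do not show how replicates 1 and 2 pair, and the pairing comes from these values alone.

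The members and all gene lists were chosen with earlier results of these data known. Genes outside the members were named by rule: up to 4 per list by unadjusted p, and the 8 of at least median level with the most similar profile. The genes Hsd11b1, Per1, Lyve1, Hdgfl2 and Sgf29 were named outside it after their values were seen.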

Additional observations from a re-analysis of the deposited data

Results flagged for a closer look

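Zbtb16 was picked out because its genotype difference had opposite signs in the N22-named pair and in the other libraries. In the N22-named pair it was higher in the Top2b-low library, by 0.273 on the log2 scale, and outside N22 both Top2b-low libraries were below both WT libraries, with a log2 difference of -0.79. The difference between those 2 values was not tested, and the pair has 1 library per genotype. The other 9 members had the same sign in both.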

How the results depend on the processing

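Between the genotypes the number of genes called over the whole table was 0 under each planned normalization, pseudocount, filter and tool, and 0 with limma and the replicate block, which changed no call. Leaving out single replicates gave 0 to 1. DESeq2 called 15 with the replicate block and 14 with the N22 term, and edgeR 0 with either, settings chosen after seeing the data. No gene of the 3 pathway lists was called under any setting. The members' mean log2 difference was -0.51 with and without the replicate block, -0.62 in the 4 libraries outside N22, and -0.65 to -0.35 when single replicates were left out. The members without overlap numbered 3, and 3 to 6 without single replicates, where fewer values are compared.

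In the N22 contrast, 4864 genes were called, 2181 without the intensity trend and 1711 to 4576 without single replicates. The members called numbered 4, against 1 with no filter, 0 without the trend (2 at an unadjusted p under 0.05), 2 with DESeq2 and 0 to 4 without single replicates. Their mean of 0.08 ranged from -0.073 to 0.24, turning to -0.073 without Top2b-low replicate 3 and -0.022 without WT replicate 1. The cause was not tested. The median pairwise correlation, 0.37, was 0.63 with no means removed, 0.43 by Spearman and 0.08 to 0.57 without single replicates. Low counts limit Map3k6, Plin4 and Sult1a1, whose lowest libraries held 41, 36 and 74 reads.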
